A study of Mus musculus with 12 samples.

Results

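The genes described here are 10 genes of neuronal migration and lissencephaly, a malformation in which the cortex stays smooth because neurons do not reach their layers. They were chosen by name, and each matched 1 of the 50600 Ensembl gene identifiers counted in every library: Dcx, Dclk1, Pafah1b1, Ndel1, Nde1, Cdk5, Cdk5r1, Cdk5r2, Flna and Rnd2. Their RNA was counted in cortex of C57BL/6 mice (C57Bl6/J in the series text) at embryonic day 11 (E11), E13, E17 and postnatal day 1 (P1), in a study of how zinc is taken up and stored as the cortex forms. Each age had 3 libraries, A, B and C, and each library was made from 1 animal of a separate litter. The labels name no mutation, transgene or treatment, so the 4 groups differed in age alone as labelled. Sex was not used as a term.

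New cortical neurons arise from dividing radial glia and intermediate progenitors near the ventricle and climb along radial fibres to the cortical plate. To move, a neuron extends a leading process, and microtubules with the motor dynein then pull the nucleus into it, while the actin cortex is remodelled. Doublecortin proteins stabilise the microtubules, and Lis1 with its partners Ndel1 and Nde1 regulates dynein. The kinase Cdk5 phosphorylates several of these proteins once an activator subunit is bound. Filamin A cross-links actin, and Rnd2 is an atypical small GTPase of migrating neurons. In people, mutations of DCX, PAFAH1B1 and NDE1 cause lissencephaly, and mutations of FLNA leave neurons stranded at the ventricle.

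Promoter sequence is shown for 3 of the genes, those with the largest fall (Nde1), the largest rise (Cdk5r2) and the highest level per length late in the series (Dcx). RefSeq windows of build GRCm38.p6 were matched for 7 of the 10 genes, and the 250 bases upstream of the first listed start were searched on both strands for 7 motifs. Cdk5, Cdk5r1 and Rnd2 were not matched. Distances are counted from the RefSeq start. For Cdk5r2 and Dcx that start lies inside the GENCODE gene positions given below, so the end of each window is within the gene. Sequences run 5′ to 3′ on the strand of the gene, with matches to a motif in capitals.
Nde1, chr16:14163025-14163274, plus strand: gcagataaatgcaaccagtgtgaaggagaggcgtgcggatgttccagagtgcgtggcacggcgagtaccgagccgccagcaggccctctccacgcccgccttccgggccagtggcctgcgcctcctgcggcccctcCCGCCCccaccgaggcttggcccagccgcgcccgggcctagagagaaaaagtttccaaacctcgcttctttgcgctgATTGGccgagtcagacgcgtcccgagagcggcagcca
Cdk5r2, chr1:74854779-74855028, plus strand: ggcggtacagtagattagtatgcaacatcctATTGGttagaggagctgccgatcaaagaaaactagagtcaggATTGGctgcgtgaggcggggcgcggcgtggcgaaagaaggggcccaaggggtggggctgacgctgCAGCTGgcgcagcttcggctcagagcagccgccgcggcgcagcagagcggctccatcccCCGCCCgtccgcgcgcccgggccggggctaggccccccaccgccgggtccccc
Dcx, chrX:143933220-143933469, minus strand: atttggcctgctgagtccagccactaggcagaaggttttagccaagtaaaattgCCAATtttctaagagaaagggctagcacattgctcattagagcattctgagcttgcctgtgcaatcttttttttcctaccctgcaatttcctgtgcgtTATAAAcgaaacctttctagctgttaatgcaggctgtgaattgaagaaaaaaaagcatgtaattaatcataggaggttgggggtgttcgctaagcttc
In the Nde1 window, which had 67.2% G and C, a CCAAT match began 37 bases before the start and a GC box match (GGGCGG) 114 bases before it, both on the other strand and so printed as ATTGG and CCGCCC. The Cdk5r2 window had 68.8% G and C and held the E-box CAGCTG at 112 bases, CCAAT matches at 219 and 177 bases and a GC box match at 53 bases. In the Dcx window, with 41.6% G and C, a CCAAT match stood at 196 bases and TATAAA at 98 bases. Of 32851 windows of the same length in the RefSeq table, which had a median of 52.4% G and C, 33.8% held CCAAT, 32.7% GGGCGG, 13% CAGCTG and 12.4% TATAAA. The other motifs searched were TTTGAA (the cell cycle homology region, in 16% of windows), CAGATG (14.4%) and 4 E2F forms, TTTCCCGC, TTTCGCGC, TTTGCCGC and TTTGGCGC (together 1.86%). The 3 printed windows held no match to these. A match describes the letters and is not evidence of a bound site.

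The deposited values were raw counts with library totals of 28173745 to 45858712, and all 10 genes passed the filter on low counts. Levels are given as CPM, for which each library was scaled with TMM and set to a total of 1000000. Adjusted p-values come from edgeR's quasi-likelihood test with Benjamini-Hochberg adjustment over 17847 genes, called below 0.05. Markers of cortical cells were present as labelled: the summed level of 8 neuronal markers was 1030 to 1160 CPM at E11, 1730 to 2000 at E13, 7310 to 7770 at E17 and 8610 to 9400 at P1. That of 8 radial glial markers was 2610 to 2690, 2620 to 2680, 1200 to 1390 and 974 to 1020 CPM. From E13 to E17, 6 of these 8 fell and 2 rose, Fabp7 (289 to 457 CPM) and Slc1a3 (111 to 224 CPM). Markers of red cells and of choroid plexus were higher in the younger libraries. The sum of 7 erythroid markers was 5420 to 15700 CPM at E11 and 13.3 to 23.6 at P1, and that of 5 choroid plexus markers 38.4 to 377 CPM at E13 and 0.516 to 8.31 at E17. The erythroid genes did not fall alike. Between E11 and P1 Hbb-y went from 6670 to 0.531 CPM and Alas2 from 85.6 to 3.37 CPM, so their sum does not measure the amount of blood. Libraries E11 C and E13 C had the highest interneuron marker sums of their ages, 44.8 CPM against 3.89 and 6.65 and 58.4 CPM against 16.8 and 25.3. They and E17 A had been picked from earlier results, which are not shown here. Without these 3 libraries 5 of the 10 genes passed from E11 to E13, 10 from E13 to E17 and 8 from E17 to P1. Of all 18287 genes tested in that setting, 4823, 11916 and 7627 passed at the same steps. In bulk tissue, fewer cells of a type and less RNA per cell cannot be told apart.

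From E11 to E13, 6 of the 10 genes rose and 4 did not pass. Of all tested genes 40.1% changed at this step, 22.6% upward and 17.5% downward. In 8 genes every E13 library lay above every E11 library and in 1 below, as in 27.6% and 24.2% of tested genes. From E13 to E17 all 10 genes changed, 7 upward and 3 downward, and these 7 and 3 were also without overlap between libraries. At this step 73.8% of tested genes changed, 36.8% upward and 37% downward, and 37.8% and 38.3% were without overlap upward and downward.

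From E17 to P1, 6 genes rose, 2 fell and 2 did not pass, where 49.9% of tested genes changed, 24% upward and 25.9% downward. Libraries did not overlap in 6 genes upward and 3 downward, as in 30.9% and 31.5% of tested genes. Over the whole span from E11 to P1, 7 genes rose and 3 fell, again without overlap. For this span 82.3% of tested genes changed, 40.5% upward and 41.8% downward, and 41.5% and 43% were without overlap. All 10 genes passed the test across the 4 ages, as did 90.2% of tested genes. The median log2 fold change of the 10 genes was 0.5, 0.74 and 0.28 at the successive steps and 1.39 over the whole span, with medians of 0, -0.04, 0 and -0.04 over all tested genes.

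**Figure D1:**
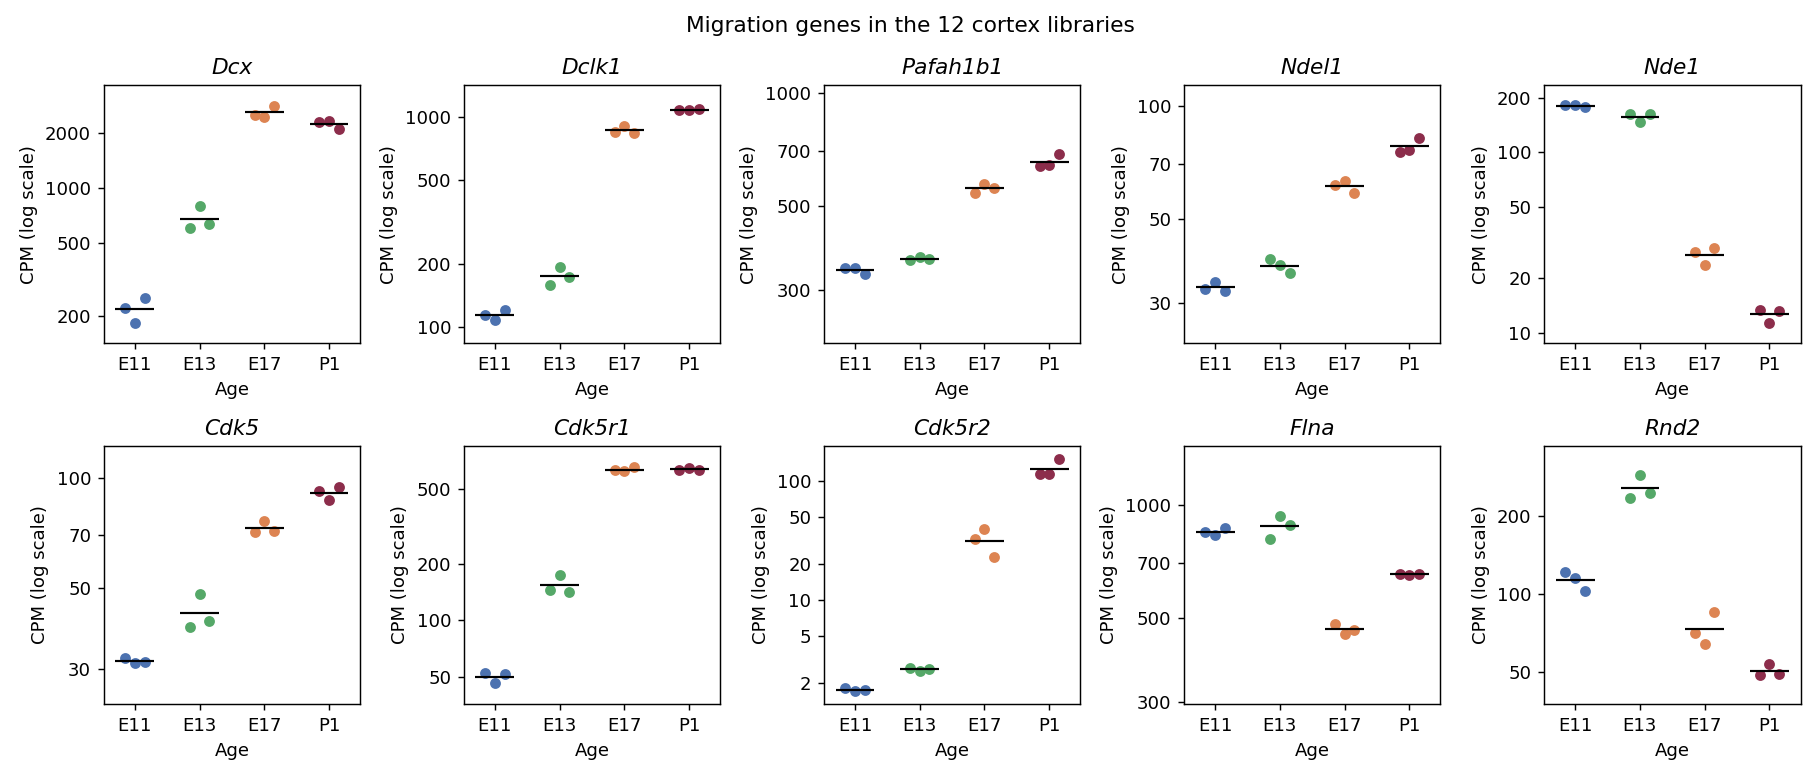
CPM of each gene (log axis, a separate scale for each panel) in the 3 libraries of E11, E13, E17 and P1, with points for libraries and black lines for the mean of an age. Dcx is highest at E17, Cdk5r1 overlaps between E17 and P1, the other 5 rising genes are highest at P1, Nde1 is lower at each later age (the step from E11 to E13 did not pass), Rnd2 peaks at E13 and Flna dips at E17 to between 456 and 483 CPM.

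Dcx (ENSMUSG00000031285; chromosome X, 143855842 to 143933311, minus strand, in the GENCODE M21 annotation of GRCm38, which gives all gene positions here) encodes doublecortin, a microtubule-binding protein of migrating neurons. It read 219, 183 and 251 CPM at E11 and 605, 796 and 633 CPM at E13. It then read 2500, 2430 and 2800 CPM at E17 and 2270, 2300 and 2080 CPM at P1. The libraries of the 4 ages did not overlap, and E17 was the highest age. The log2 fold change was 1.64 from E11 to E13 (SE 0.12, adjusted p = 1.1e-06) and 1.93 from E13 to E17 (SE 0.12, adjusted p = 1.76e-08). Between E17 and P1 the log2 fold change was -0.22 (SE 0.12) and did not pass (adjusted p = 0.154), although every P1 library lay below every E17 library. All 8 neuronal markers rose at each of the first steps, with median log2 fold changes of 1.2 and 2.69, and 6 of them rose from E17 to P1. Their part in the Dcx result was not tested.

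Dclk1 (ENSMUSG00000027797; chromosome 3, 55242364 to 55539068, plus strand) encodes a relative of doublecortin that also carries a kinase domain. It read 114, 108 and 120 CPM at E11 and 158, 192 and 172 CPM at E13. The later levels were 850, 913 and 843 CPM at E17 and 1080, 1080 and 1100 CPM at P1. Every age lay above the one before it. The largest step was from E13 to E17 (log2 fold change 2.32, SE 0.07, adjusted p = 1.54e-11). It followed 0.61 (SE 0.07, adjusted p = 1.97e-05) from E11 to E13 and came before 0.32 (SE 0.07, adjusted p = 0.0017) from E17 to P1. Relative to Dcx, Dclk1 counts were lowest at E13. The count ratio of Dclk1 to Dcx had geometric means of 0.528, 0.258, 0.338 and 0.491 at the 4 ages. On the log2 scale its means ± SD were -0.92 ± 0.15, -1.96 ± 0.09, -1.57 ± 0.16 and -1.03 ± 0.09 (n = 3 each). No library of E13 reached the ratio of any library of E11 or P1. Short exon stretches of Dclk1 overlap 2 opposite-strand models, Gm42609 and Gm21954, which had at most 3 counts in a library.

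Pafah1b1 (ENSMUSG00000020745; chromosome 11, 74673949 to 74724670, minus strand) encodes Lis1, the dynein regulator whose loss of a copy causes lissencephaly. Its levels were 344, 344 and 331 CPM at E11 and 360, 367 and 362 CPM at E13. Late in the series it read 544, 573 and 559 CPM at E17 and 639, 644 and 687 CPM at P1. The means of P1 and E11 differed 1.93-fold, and the libraries of the 4 ages did not overlap. The step from E11 to E13 did not pass (log2 fold change 0.09, SE 0.05, adjusted p = 0.142). The step to E17 was 0.62 (SE 0.05, adjusted p = 5.42e-08) and the step to P1 was 0.23 (SE 0.05, adjusted p = 0.00142). The pseudogenes Pafah1b1-ps1 and Pafah1b1-ps2 had 71 and 13 counts over all 12 libraries, against at least 10386 counts of Pafah1b1 in each library.

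Ndel1 (ENSMUSG00000018736; chromosome 11, 68821434 to 68871858, minus strand) encodes an adaptor that joins Lis1 to dynein in postmitotic neurons. It read 32.8, 34.1 and 32.4 CPM at E11 and 39.2, 37.8 and 36 CPM at E13. After that it read 61.7, 63.2 and 58.7 CPM at E17 and 75.5, 76.3 and 82.2 CPM at P1. It rose at each step without overlap. The log2 fold changes were 0.19 (SE 0.06, adjusted p = 0.0176), 0.7 (SE 0.06, adjusted p = 5.79e-08) and 0.35 (SE 0.05, adjusted p = 0.000161). The first of these did not pass without E11 C (adjusted p = 0.0656) or without E13 A (adjusted p = 0.0597), and it did not pass in 5 of 23 alternatives.

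Nde1 (ENSMUSG00000022678; chromosome 16, 14163275 to 14192928, plus strand), the paralog of Ndel1 that also binds Lis1 and acts at the mitotic spindle of progenitors, went the other way. It read 182, 182 and 178 CPM at E11 and 164, 147 and 163 CPM at E13. The later libraries had 27.9, 23.8 and 29.3 CPM at E17 and 13.4, 11.3 and 13.1 CPM at P1. Each age lay below the one before it. Nde1 fell by 2.55 on the log2 scale from E13 to E17 (SE 0.08, adjusted p = 1.86e-11) and by 1.1 from E17 to P1 (SE 0.09, adjusted p = 1.72e-06), and the mean at E11 was 14.3 times that at P1. The step from E11 to E13, -0.2 (SE 0.08), did not pass (adjusted p = 0.0559). It passed in 10 of 23 alternatives, including those without E17 B (adjusted p = 0.031) and without P1 B (adjusted p = 0.0345), and the adjusted p ranged from 0.018 to 0.197. The summed level of 8 markers of dividing cells, none of them without counts at any age, moved with it, at 2690 to 2870, 2300 to 2600, 315 to 442 and 135 to 155 CPM. All 8 of these markers fell from E13 to E17 (median log2 fold change -2.7) and from E17 to P1 (median -1.45), and their part in the Nde1 result was not tested. A stretch of 77 bases of Nde1 exons (2.4%) is shared with Marf1 on the opposite strand, whose means were 114, 135, 129 and 87.9 CPM. Whether the counting used strand is not given in the sources, and without it reads of that stretch cannot be told apart.

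The 2 Lis1 adaptors exchanged places in the count data. Nde1 had 5.57, 5.33 and 5.5 counts for each Ndel1 count in the 3 libraries of E11 and 4.18, 3.88 and 4.55 in those of E13. The same ratio read 0.452, 0.376 and 0.499 in E17 libraries and 0.177, 0.148 and 0.159 in P1 libraries. On the log2 scale the means ± SD were 2.45 ± 0.03, 2.07 ± 0.11, -1.19 ± 0.21 and -2.63 ± 0.13 (n = 3 each), with no overlap between ages. Exon lengths of the 2 genes are close, 3205 bases for Nde1 and 3253 for Ndel1. Per kilobase of exon Nde1 had 56.4 and Ndel1 10.2 CPM at E11, against 3.93 and 24 CPM at P1.

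**Figure D2:**
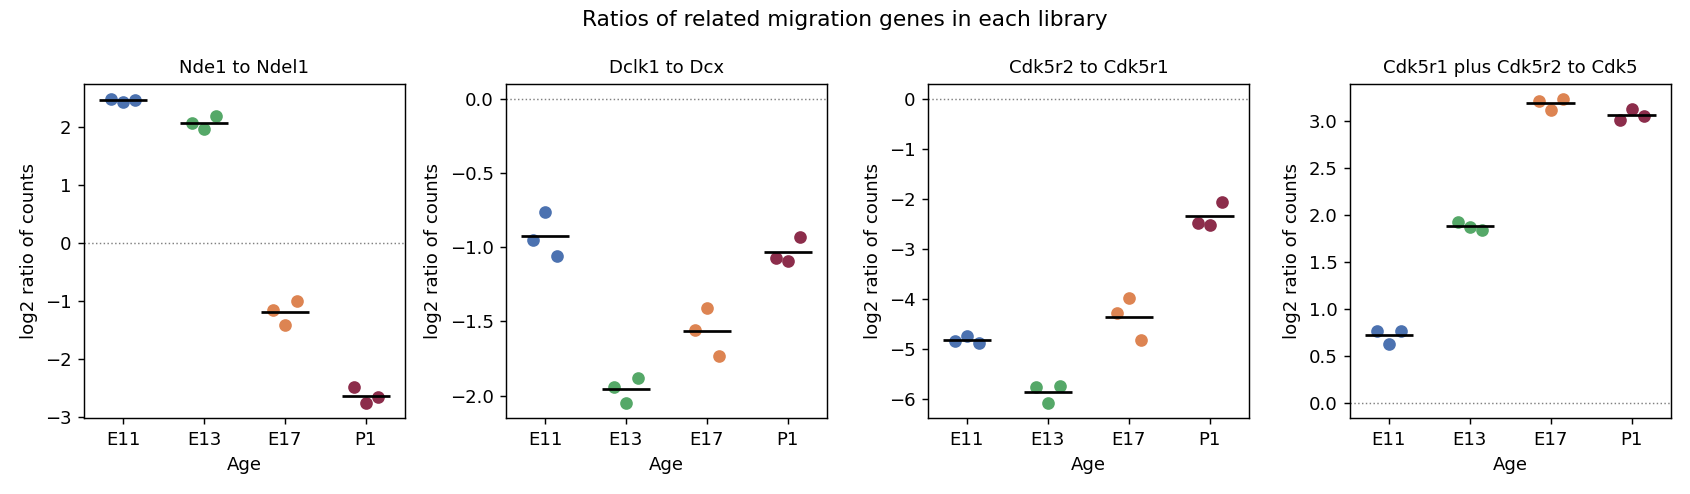
Log2 ratio of the counts of related genes in each library by age, with points for libraries, black lines for the mean of an age and a dotted line at equal counts. The ratio of Nde1 to Ndel1 crosses equal counts between E13 and E17, and the ratio of Cdk5r2 to Cdk5r1 is highest at P1 in all 3 libraries.

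Cdk5 (ENSMUSG00000028969; chromosome 5, 24418241 to 24423530, minus strand) encodes a kinase of the cyclin-dependent family that works in postmitotic neurons. Its levels were 32.1, 31.2 and 31.3 CPM at E11 and 39.1, 48.2 and 40.6 CPM at E13. In the older cortex it read 71.4, 76.3 and 71.9 CPM at E17 and 92.4, 87 and 94.5 CPM at P1. All 3 steps were rises without overlap, with log2 fold changes of 0.44 (SE 0.07, adjusted p = 0.000375), 0.78 (SE 0.07, adjusted p = 2.53e-07) and 0.32 (SE 0.07, adjusted p = 0.00194).

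Cdk5r1 (ENSMUSG00000048895; chromosome 11, 80477023 to 80481184, plus strand) encodes p35, the main activator subunit of Cdk5 in the developing cortex. It read 52.7, 46.6 and 51.6 CPM at E11 and 145, 174 and 142 CPM at E13. The later levels were 629, 619 and 653 CPM at E17 and 631, 645 and 629 CPM at P1. It rose by log2 fold changes of 1.61 (SE 0.07, adjusted p = 2.67e-08) and 2.04 (SE 0.07, adjusted p = 5.02e-11), up to E17. Between E17 and P1 the libraries overlapped and the log2 fold change was 0 (SE 0.07, adjusted p = 0.972).

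Cdk5r2 (ENSMUSG00000090071; chromosome 1, 74854934 to 74857732, plus strand) encodes p39, the other activator. It read 1.83, 1.74 and 1.75 CPM at E11 and 2.67, 2.55 and 2.65 CPM at E13. Late in the series it read 32.3, 39.1 and 23.1 CPM at E17 and 113, 113 and 151 CPM at P1. It had the widest range of the 10 genes, 6.15 on the log2 scale from E11 to P1 (SE 0.22, adjusted p = 5.77e-11), and it rose at the last step, where Cdk5r1 did not pass. From E13 to E17 it rose by 3.58 (SE 0.2, adjusted p = 8.88e-09) and from E17 to P1 by 2 (SE 0.16, adjusted p = 4.06e-06). At E11 and E13 the level rested on 55 to 101 counts a library. The log2 fold change between them, 0.56 (SE 0.26), did not pass (adjusted p = 0.101). It passed without E17 B (adjusted p = 0.0493), without E17 C (adjusted p = 0.0216) and in 4 of 23 alternatives in all. Among the E17 libraries C was the lowest and B the highest, with a coefficient of variation of 25.5%.

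Per kilobase of exon, p39 transcripts made up 4.99% ± 0.239 of the transcripts of both activators at E11 (SD, n = 3), 2.5% ± 0.315 at E13, 6.9% ± 1.8 at E17 and 22.7% ± 3.16 at P1. The P1 libraries, at 20.6 to 26.3%, lay above all others. Together the 2 activators had 1.55 to 1.71 counts for each Cdk5 count at E11, 3.57 to 3.78 at E13, 8.62 to 9.4 at E17 and 8.05 to 8.72 at P1. This ratio rose up to E17, and its E17 and P1 libraries overlapped.

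**Figure D3:**
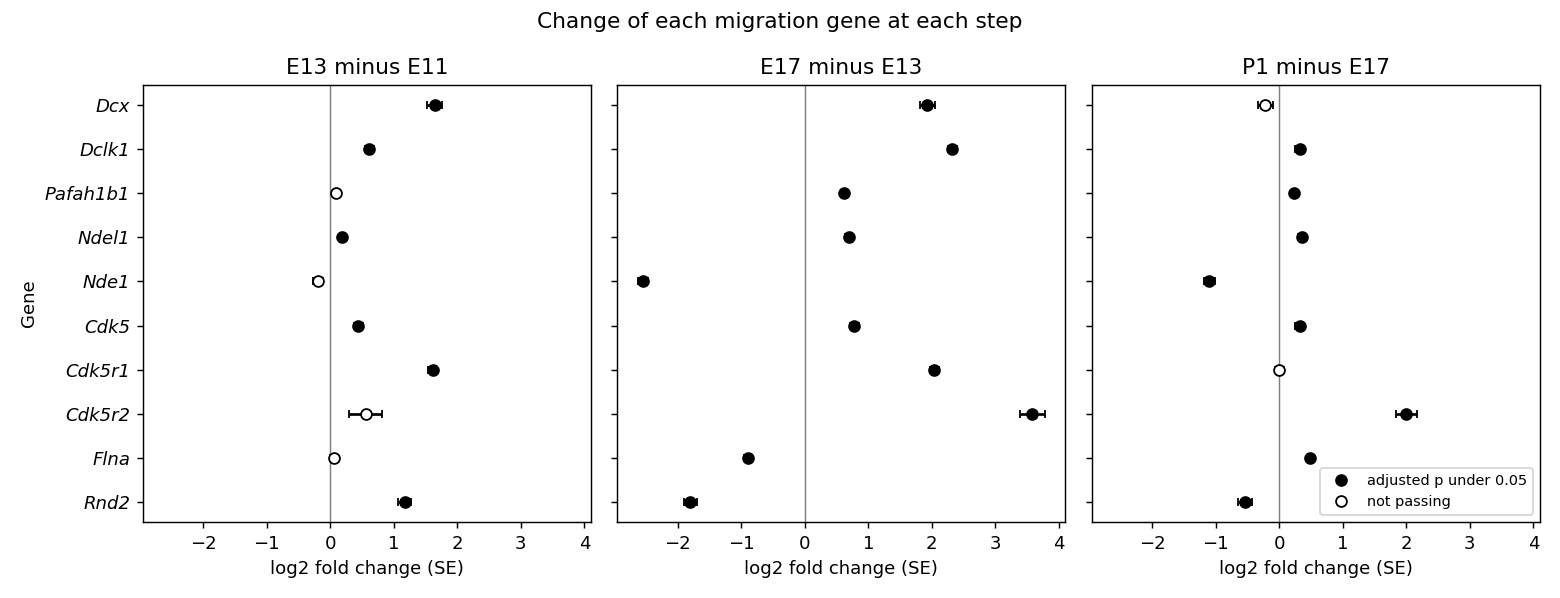
Log2 fold change of each gene from E11 to E13, E13 to E17 and E17 to P1 (later age minus earlier, edgeR), with SE as bars, filled points for adjusted p under 0.05 and open points otherwise. The step from E13 to E17 has a filled point for all 10 genes, and Cdk5r2 (3.58) and Nde1 (-2.55) lie at its ends.

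Flna (ENSMUSG00000031328; chromosome X, 74223461 to 74249820, minus strand) encodes filamin A, which cross-links actin filaments under the membrane. It read 849, 830 and 866 CPM at E11 and 812, 932 and 885 CPM at E13. After that it read 483, 456 and 466 CPM at E17 and 656, 652 and 655 CPM at P1. E11 and E13 overlapped (log2 fold change 0.05, SE 0.05, adjusted p = 0.535), and E17 was the lowest age in every library. Flna fell by 0.9 on the log2 scale from E13 to E17 (SE 0.05, adjusted p = 4.26e-09) and rose by 0.48 from E17 to P1 (SE 0.05, adjusted p = 1.52e-05). P1 lay below E11 (log2 fold change -0.37, SE 0.05, adjusted p = 2.2e-05). Of the 10 genes Flna alone fell past the threshold at a step and rose past it at the next.

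Filamin A is also made outside neurons, in fibroblasts and vessels. The sum of 8 meningeal fibroblast markers was 1200 to 1440 CPM at E11, 820 to 1120 at E13, 41.6 to 51.4 at E17 and 34.5 to 78.6 at P1, and 7 of the 8 fell from E13 to E17. The sum of 8 endothelial markers was 254 to 319, 222 to 285, 176 to 216 and 152 to 185 CPM, and 5 of the 8 fell and 2 rose from E13 to E17. For 7 mural cell markers the sum was 74.9 to 94, 89.5 to 100, 148 to 176 and 150 to 157 CPM. From E13 to E17, 3 of the 7 rose (Rgs5, Cspg4 and Kcnj8) and 2 fell (Acta2 and Tagln). Every marker of the 3 lists had counts at each age. The meningeal and endothelial sums were lower at E17 than at E13 without overlap, the step where Flna fell, and their part in that result was not tested. At the step where Flna rose, the E17 and P1 ranges of all 3 sums overlapped, and the median log2 fold change was 0.75 for the meningeal (0 rose, 1 fell), -0.26 for the endothelial (0 rose, 2 fell) and 0.26 for the mural markers (2 rose, 1 fell).

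Rnd2 (ENSMUSG00000001313; chromosome 11, 101464999 to 101471853, plus strand) encodes a small GTPase that is needed as neurons leave the intermediate zone, and Neurog2 is known to activate it. It read 122, 115 and 103 CPM at E11 and 234, 287 and 245 CPM at E13. The later libraries had 70.4, 64.3 and 85.2 CPM at E17 and 48.8, 53.5 and 48.9 CPM at P1. E13 stood above the other ages in every library. Rnd2 rose by 1.17 on the log2 scale from E11 to E13 (SE 0.1, adjusted p = 3.64e-06). It then fell by 1.8 (SE 0.1, adjusted p = 6.5e-09), and fell by 0.54 from E17 to P1 (SE 0.11, adjusted p = 0.00106). The summed level of 6 intermediate progenitor markers, all with counts at each age, was 407 to 476, 904 to 1080, 251 to 376 and 68.3 to 101 CPM. Neurog2 is itself 1 of the 6, with means of 132, 249, 35.9 and 2.69 CPM at the 4 ages. Of the 6, 5 rose at the first step, 5 fell at the next and 6 at the last, and their part in the Rnd2 result was not tested. A stretch of 226 bases of Rnd2 exons (11.4%) overlaps Vat1 on the opposite strand, so the limit given for Nde1 and Marf1 holds here too. Vat1 also had its highest mean at E13 (92.3, 158, 106 and 102 CPM at the 4 ages).

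**Figure D4:**
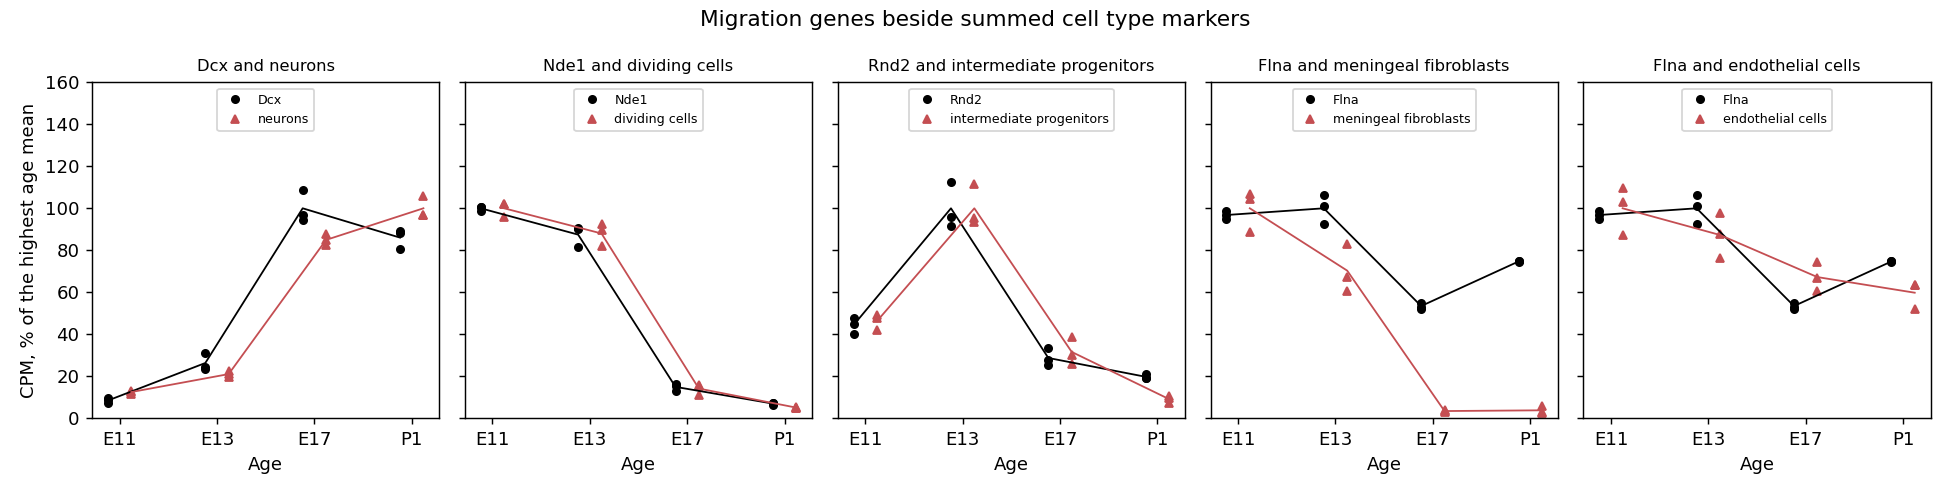
CPM of Dcx, Nde1, Rnd2 and Flna (black circles) beside the summed CPM of a marker list (red triangles), each as a percentage of its own highest age mean, by age and library, with lines through the age means. Nde1 and the dividing cell markers, and Rnd2 and the intermediate progenitor markers, move at the same steps. Flna is higher at P1 than at E17, and the libraries of both ages overlap in the meningeal and endothelial sums. The part of the markers in these results was not tested.

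Levels of different genes were compared per kilobase of exon (union of the annotated exons). At E11 Flna was the highest of the 10 at 90.2 ± 1.96 CPM per kb (SD, n = 3), followed by Rnd2 (57 ± 4.74) and Nde1 (56.4 ± 0.798), which did not differ beyond their spread. At E13 the highest was Rnd2 at 128 ± 14.1 CPM per kb, above Flna at 93.2 ± 6.39 and Dcx at 53.6 ± 8.18. Doublecortin and p35 led at E17, Dcx at 204 ± 15.5 and Cdk5r1 at 152 ± 4.19 CPM per kb, and again at P1, at 175 ± 9.2 and 153 ± 2.11. Nde1, near the top at E11, had the lowest mean of the 10 at both late ages, 8.42 ± 0.895 and 3.93 ± 0.356 CPM per kb, but at E17 it did not differ beyond the spread from Cdk5r2 (11.3 ± 2.88). When the longest coding transcript was used as the length, the highest gene was the same at each age, and Cdk5r2 rather than Nde1 was the lowest at E17.

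Patterns over the 12 libraries were also compared by Pearson's r of log2(CPM + 0.1), as a description, since all genes share the same libraries and the same 4 ages. Dcx ran closest among the 10 to Cdk5r1 (r = 0.996), and Pafah1b1 to Ndel1 (r = 0.995), while Nde1 ran opposite to Pafah1b1 (r = -0.995). These values were not particular to Lis1 and its adaptors. Cdk5r2 had r = 0.996 with Ndel1, 0.994 with Pafah1b1 and -0.995 with Nde1. Among 10269 genes with a mean of at least 10 CPM, the 3 nearest to Dcx were Nsg2 (r = 0.999), Apc2 (r = 0.998) and Rab3c (r = 0.998), genes of neuronal vesicles and microtubules. The nearest to Nde1 were the cell division genes Cdc25c, Racgap1 and Nek2, each with r = 0.999. For Cdk5r1 they were Kif3c, Shtn1 and Scg3 (r = 0.999 each) and for Cdk5r2 Slc24a3 (r = 0.999), Kif3b and Cpe (r = 0.998 each). Gnaq, Cmip and Prkcz were nearest to Dclk1, and Mfhas1, Wsb2 and Rab6a to Pafah1b1. Spryd3, Map1lc3a and Pcsk1n were nearest to Ndel1, and Atp6v0a1 and Usp20 to Cdk5. The r of each of these genes was at least 0.998.

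Flna and Rnd2 had few close companions. An r of at least 0.99 was reached by 597 genes for Dclk1 and 127 for Dcx, the ends of the range over the other 8 genes, but by 2 for Rnd2 and by 0 of 10269 for Flna. The nearest gene to Flna was Polg (r = 0.989), a mitochondrial polymerase with means of 95.6, 100, 66.7 and 81.2 CPM. Rnd2 was nearest to Adgrg1 (r = 0.992; 253, 377, 194 and 147 CPM), an adhesion receptor of progenitors that is itself a cortical malformation gene, then to Ubxn2a (r = 0.99) and Abcd2 (r = 0.989).

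Further genes of the same pathways were read from 8 lists, all of whose genes were tested. Beside their counts stand the shares of all tested genes: 22.6% rose and 17.5% fell from E11 to E13, 36.8% and 37% from E13 to E17, and 24% and 25.9% from E17 to P1. No list was tested against other genes, and in several the share that passed was close to that of all genes, such as 10 of 22 dynein partners from E17 to P1 against 49.9%. Of 22 partners of dynein and Lis1, 10 rose and 1 fell from E11 to E13, 18 rose and 3 fell from E13 to E17, and 5 rose and 5 fell from E17 to P1 (median log2 fold changes 0.15, 0.45 and 0.02). Dync1i1, the neuronal dynein intermediate chain, went from 0.488 CPM at E11 through 7.74 and 265 to 297 CPM at P1. On the log2 scale it rose by 3.99 (SE 0.49, adjusted p = 1.97e-05) and 5.1 (SE 0.22, adjusted p = 5.44e-09) at the first steps. Its E11 level was near the floor, so the size of the first rise is uncertain. Katna1, a microtubule-severing subunit, fell at the later steps (36.8 CPM at E13, 19.3 at E17 and 14 at P1; adjusted p = 1.81e-08 and 7.74e-05).

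Of 13 doublecortin relatives and microtubule-associated proteins, 9 rose from E11 to E13, 12 rose from E13 to E17, and 7 rose and 1 fell from E17 to P1 (medians 0.57, 1.09 and 0.3). Mapt, the axonal microtubule protein tau, had 23.8, 157, 2500 and 3250 CPM at the 4 ages. Its rises of 2.72 and 4 on the log2 scale passed (adjusted p = 3.95e-08 and 3.91e-11). The last, 0.38 (adjusted p = 0.0152), did not pass without E17 C (log2 fold change 0.34) or without P1 C (0.35). Dclk3, a kinase relative of Dclk1, rose from 0.109 CPM at E13 to 3.75 at E17 and 10.8 at P1. The log2 fold changes were 5.11 (SE 0.73, adjusted p = 2.21e-06) and 1.55 (SE 0.32, adjusted p = 0.00168). Its E13 level was near the floor, so the size of the first of these rises is uncertain. Of 8 tubulin and kinesin genes of cortical malformations, 5 rose from E11 to E13, and 7 rose and 1 fell from E13 to E17. Tubb2a, a beta tubulin, rose at each step, from 38.5 through 83.1 and 631 to 1000 CPM (log2 fold changes 1.11, 2.92 and 0.67; adjusted p = 7.81e-07, 1.29e-11 and 2.99e-05). From E17 to P1 only 2 tubulin and kinesin genes passed, Tubb2a upward and Tubg1 downward, and without E13 B it was 4.

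Cdk5 substrates and binding partners numbered 12, of which 7 rose from E11 to E13, 8 rose and 1 fell from E13 to E17, and 4 rose and 4 fell from E17 to P1 (medians 0.28, 0.83 and 0.07). The last count of 8 was 5 without E17 C and 5 without P1 C. Mapt, which is in this list too, had the largest rise, and Cdk5rap2, a centrosome protein, fell from 168 CPM at E13 to 114 at E17 and 66.8 at P1 (adjusted p = 7.03e-06 and 3.92e-06).

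Of 13 genes of the filamin family and its partners, 3 rose and 7 fell from E11 to E13, 5 rose and 8 fell from E13 to E17, and 2 rose and 3 fell from E17 to P1 (medians -0.2, -0.43 and 0.03). The first count of 10 was 7 without E11 C, 7 without E13 C and 5 with these and E17 A omitted. Flnc, the muscle filamin, fell from 52.1 to 10.8 CPM between E13 and E17 (log2 fold change -2.28, adjusted p = 6.31e-07), while Fblim1, a filamin-binding adaptor, rose from 7.71 to 29 CPM (1.91, adjusted p = 4.31e-07).

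Of 13 genes of the reelin pathway, the extracellular signal that positions arriving neurons, 8 rose and 3 fell from E11 to E13, 9 rose and 3 fell from E13 to E17, and 2 rose and 5 fell from E17 to P1. Reln rose from 87.9 to 265 CPM between E11 and E13 (log2 fold change 1.59, adjusted p = 1.92e-05), and its receptor gene Vldlr from 30 to 138 CPM between E13 and E17 (2.21, adjusted p = 4.99e-10). Of 14 genes listed under guidance and adhesion in radial migration, not all of them particular to it, 7 rose and 1 fell, then 9 rose and 3 fell. From E17 to P1 only 1 rose and 9 fell (median -0.56). The first count of 8 was 5 with the same 3 libraries omitted. Unc5d, a receptor for netrin and Flrt proteins, rose from 3.54 to 37.9 CPM between E11 and E13 (3.41, adjusted p = 3.15e-05). Erbb4, a neuregulin receptor, rose from 9.45 to 98.1 CPM between E13 and E17 (3.38, adjusted p = 5.05e-12). All 6 interneuron markers also rose at that step, their sum going from 16.8 to 58.4 CPM at E13 to 295 to 358 CPM at E17. Their part in the Erbb4 result was not tested. Ackr3, a chemokine scavenger receptor, fell from 27.9 to 11 CPM between E17 and P1 (-1.35, adjusted p = 4.2e-05). Among 12 other cortical malformation genes, 7 rose and 2 fell, then 6 rose and 5 fell, and from E17 to P1 7 fell and 5 did not pass (median -0.31). Ctnna2, a neuronal catenin, rose from 97.7 to 343 CPM between E13 and E17 (1.81, adjusted p = 5.62e-11), and Tmtc3 fell from 21.2 to 12.5 CPM between E17 and P1 (-0.77, adjusted p = 3.81e-06).

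**Figure D5:**
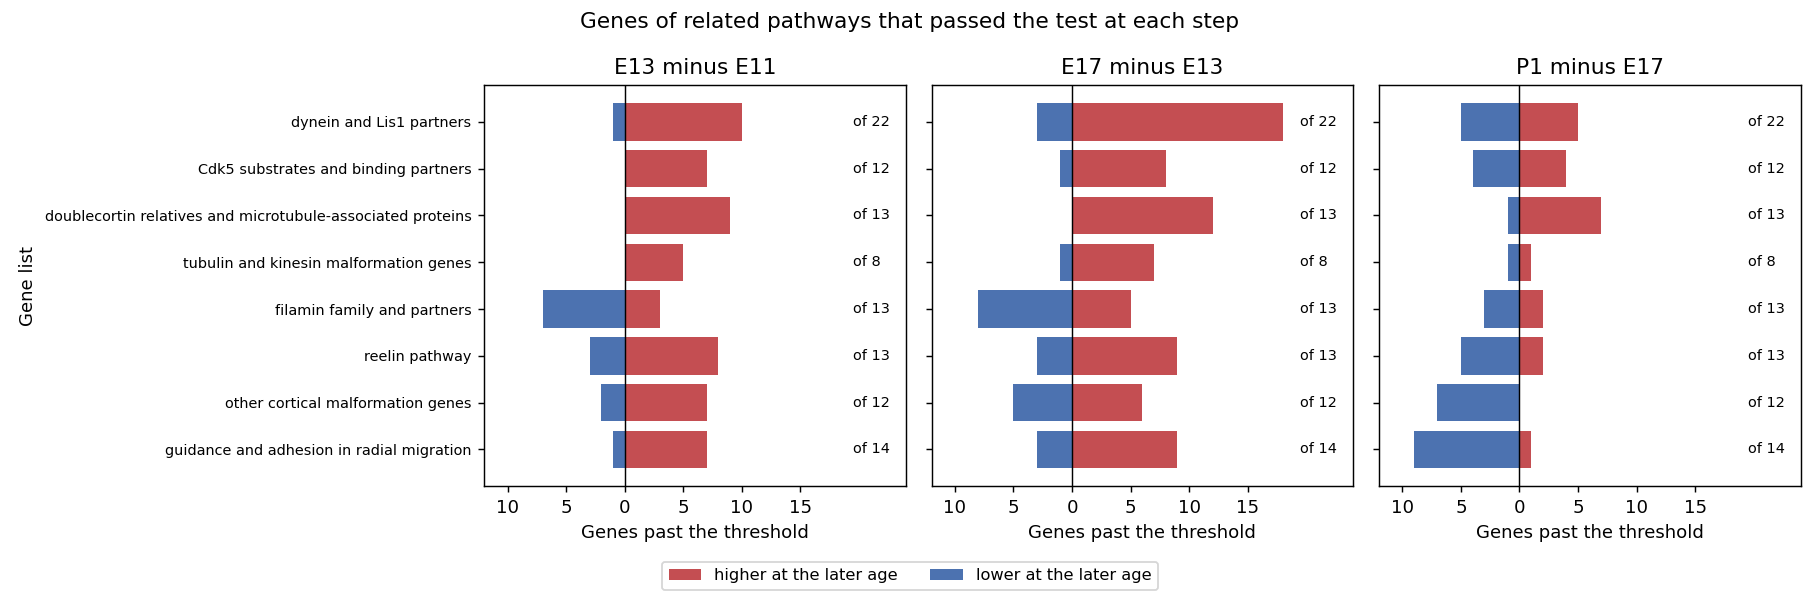
Number of genes of each list that rose (red, to the right) or fell (blue, to the left) past adjusted p 0.05 at each step, with the list size at the right of each row. From E13 to E17 the bars for rises reach 18 of 22 dynein, 12 of 13 doublecortin and 7 of 8 tubulin genes, where 36.8% of all tested genes rose, and from E17 to P1 the bar for falls reaches 9 of 14 guidance genes, where 25.9% fell.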

How the data were processed

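The deposited values are raw read counts per Ensembl gene identifier, 1 table a library, which the authors did not normalize (from the values: whole numbers with unequal totals). Per the labels' protocols, poly(A)+ RNA from 1 µg of total RNA was made into libraries with the TruSeq Stranded mRNA kit and read as 75 bp single reads on a NextSeq, all 12 libraries multiplexed. STAR 2.5.2b, HTSeq 0.5.3, SAMtools, DESeq2 1.8.1 and bcl2fastq 2.18 are listed, without roles, in the submitters' processing notes. Neither the genome build nor the annotation, nor whether counting used strand, is given in the sources used here. Of the 50600 identifiers 50376 matched a symbol, and the 224 others took 0.0674 to 0.0877% of the counts.

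Counts were analysed with edgeR 4.0.16 in R 4.3.3: filterByExpr (minimum count 10) kept 17847 genes, libraries were scaled by TMM (factors 0.92 to 1.09). The robust quasi-likelihood fit had 1 mean per age, used all 12 libraries and was tested two-sided. The pipeline was also run on simulated counts in which a small set of genes changed, at P1 alone. Far more genes changed in these data, so that run does not check the scaling under such broad change. CPM use the TMM-scaled library, and ratios of 2 genes were given no test. With 3 animals an age, precision rests on pooling the spread over genes and ages. Relative to the level, counting error was largest for Cdk5r2 at E11 and E13, with 55 to 101 counts a library. It was not compared with the spread gene by gene. Pairs of libraries of 1 age differed by a chi-squared per degree of freedom of 9.46 to 27.3, so no library was counted as a copy. Alternatives were RLE, upper-quartile and library-size scaling, 2 other filters, erythroid genes removed, a block for the replicate letter, only the 2 ages compared, DESeq2 1.42.0, limma-voom (limma 3.58.1), each library left out, and, added after seeing the data, the 3 libraries E11 C, E13 C and E17 A omitted jointly.

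The 10 genes and all lists were chosen with earlier results of these data known. Of these, 1 list and 1 similar gene are not reported here. Named list genes are from those with the largest rise or fall past the threshold in a comparison, where either age had a mean of 1 CPM or more, and the nearest 3 genes by r leave out numbered model genes. Figures were drawn with matplotlib 3.10.9.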

Additional observations from a re-analysis of the deposited data

How the results depend on the processing

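Under every alternative run, including each library left out, all 10 genes changed from E13 to E17, from E11 to P1 and across the 4 ages; 5 to 8 passed from E11 to E13 (6 in the result given) and 8 to 9 from E17 to P1 (8). Of 920 log2 fold changes of the 10 genes under the alternatives, 900 kept their side of the threshold (896 also their sign, while 4 values of Cdk5r1 from E17 to P1 and Flna from E11 to E13 changed sign without passing), 15 newly passed (Nde1 and Cdk5r2 from E11 to E13, and Dcx from E17 to P1 with only those 2 ages, adjusted p = 0.0138) and 5 no longer passed (Ndel1 from E11 to E13). For other named list genes 2713 of 2759 kept their side, 29 of them with a changed sign that never passed, and 1 value that had passed changed sign: Arfgef2, a regulator of vesicle coating that is in the filamin list, was 0.18 from E13 to E17 but -0.01 with library size alone, and the cause was not tested. Over all genes the counts that passed were 4823 to 7383 from E11 to E13, 11916 to 13590 from E13 to E17 and 7250 to 9481 from E17 to P1. With library size alone the median of all genes moved from -0.04 to -0.22 from E13 to E17 and to -0.26 from E11 to P1, and 5407 genes rose and 8183 fell from E13 to E17 in place of 6564 and 6610; the 10 genes kept their directions in both comparisons. Omitting the 3 libraries picked from earlier results (E17 A, E13 C, E11 C) lowered the counts of changed filamin and guidance genes from E11 to E13 from 10 and 8 to 5 each. The chi-squared per degree of freedom did not set E13 C or E17 A apart. At E13 it was 10.4 for A and C, against 27.3 and 17.8 for pairs with B. At E17 it was 9.61 and 10.5 for pairs with A, against 12.7 for B and C. The replicate letters do not pair the animals, which came from different litters: over 18 same-letter pairs the correlation of deviations was -0.549 to 0.454, and 4 of 12 libraries correlated best with their own letter. With the letter as a replicate block, 7 of the 10 genes passed from E11 to E13 (Nde1 added, adjusted p = 0.0252), 10 from E13 to E17 and 8 from E17 to P1, with 6756, 12975 and 8542 genes in all.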

Other observations

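Within an age, single libraries differed in several of the 10 genes at a time. E13 B had the highest Dcx, Dclk1, Cdk5, Cdk5r1 and Rnd2 of its age (796, 192, 48.2, 174 and 287 CPM) and the lowest Nde1 (147 CPM). The same library had the highest neuronal and intermediate progenitor marker sums at E13 (2000 and 1080 CPM) and the lowest dividing cell sum (2300 CPM). At E17, library B had the lowest Nde1 and Rnd2 (23.8 and 64.3 CPM), the highest Cdk5r2 (39.1 CPM) and the lowest dividing cell and intermediate progenitor sums (315 and 251 CPM), while library C had the highest Nde1 and Rnd2 (29.3 and 85.2 CPM), the lowest Cdk5r2 (23.1 CPM) and the highest sums (442 and 376 CPM). At P1, library C had the highest Cdk5r2 and Ndel1 (151 and 82.2 CPM) and the lowest Dcx (2080 CPM), with the highest neuronal sum (9400 CPM). The 3 animals of an age have no order, and these are single values without a test.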
